A study of Homo sapiens with 12 samples.

Results

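The 9 genes described here encode the machinery of MHC class I antigen presentation. They are the heavy chains HLA-B, HLA-C and HLA-E, the light chain B2M (beta-2-microglobulin), the peptide transporter subunits TAP1 and TAP2, the loading factor TAPBP (tapasin), and the immunoproteasome subunits PSMB8 and PSMB9. They were chosen by gene symbol, with earlier results of these data known, and each matched 1 row among the 58735 genes of the table. RNA from the granulosa cell tumor (GCT) lines KGN and COV434, both labelled wild type and both cultured with serum, was sequenced in 12 libraries. For each cell line, 3 libraries came from untreated controls and 3 from cells treated with 77-39, a small-molecule inhibitor of SIRT3, the main deacetylase of mitochondria. The treated libraries are labelled 72 h and 10 um/ml, a unit that can be read as µM or as µg/mL. Identical treatment text stands on the control libraries too, which were taken as untreated from their titles, and the labels name no vehicle. The comparisons asked how each cell line responded to 77-39, whether the responses differed, and how the untreated lines differed from each other. Each kind of tumor was represented by 1 line, and the labels do not say that libraries of a group came from separate cultures, so p-values measure only the spread between these libraries.

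Class I molecules display peptides from inside the cell to CD8+ T cells, and HLA-E is also read by receptors of natural killer cells. The proteasome cuts proteins into peptides, TAP1 and TAP2 together carry them into the endoplasmic reticulum, and tapasin holds the empty heavy chain and B2M next to the transporter until a peptide fits. Interferon is known to induce this set through IRF1 and NLRC5 among others, and to replace the standard catalytic subunits of the proteasome by PSMB8, PSMB9 and PSMB10.

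The promoters of 5 of the genes are printed. Those of HLA-B, B2M and TAP1 hold a motif through which class I genes are known to answer interferon or NF-κB, that of HLA-C is shown for its nearness to HLA-B, and that of PSMB9 because it lies in the stretch between PSMB9 and TAP1. The sequences are from RefSeq (GRCh38.p14), hold the 250 bases before the annotated start, and are written 5′ to 3′ along each gene. RefSeq windows matched 8 of the 9 genes, and HLA-E was not matched. Capitals mark the motif TTTCNNTTT, the core of the interferon-stimulated response element, or GGGGATTCC, the kB site of class I promoters, on either strand. The windows lie at chr6:31357180-31357429 on the minus strand for HLA-B, chr6:31272093-31272342 on the minus strand for HLA-C, chr15:44711267-44711516 on the plus strand for B2M, chr6:32853705-32853954 on the minus strand for TAP1 and chr6:32853942-32854191 on the plus strand for PSMB9.
HLA-B: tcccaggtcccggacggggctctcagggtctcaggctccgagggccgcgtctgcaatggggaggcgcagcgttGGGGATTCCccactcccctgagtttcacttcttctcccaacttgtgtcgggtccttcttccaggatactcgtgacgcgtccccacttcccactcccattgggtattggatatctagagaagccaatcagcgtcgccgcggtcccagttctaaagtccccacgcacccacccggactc
HLA-C: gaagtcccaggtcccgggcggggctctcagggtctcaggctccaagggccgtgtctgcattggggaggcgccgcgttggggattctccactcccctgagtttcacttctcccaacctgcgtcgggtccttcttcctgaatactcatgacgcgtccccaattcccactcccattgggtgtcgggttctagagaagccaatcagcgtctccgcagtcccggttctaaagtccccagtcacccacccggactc
B2M: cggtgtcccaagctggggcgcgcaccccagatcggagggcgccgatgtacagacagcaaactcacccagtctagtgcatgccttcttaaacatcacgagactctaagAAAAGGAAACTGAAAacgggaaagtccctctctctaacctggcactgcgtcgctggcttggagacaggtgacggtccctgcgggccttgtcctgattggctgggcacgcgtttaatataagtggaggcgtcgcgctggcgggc
TAP1: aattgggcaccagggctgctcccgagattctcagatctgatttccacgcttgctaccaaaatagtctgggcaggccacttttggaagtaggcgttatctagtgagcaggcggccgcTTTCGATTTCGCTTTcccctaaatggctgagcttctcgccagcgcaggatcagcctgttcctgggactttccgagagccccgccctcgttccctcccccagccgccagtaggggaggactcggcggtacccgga
PSMB9: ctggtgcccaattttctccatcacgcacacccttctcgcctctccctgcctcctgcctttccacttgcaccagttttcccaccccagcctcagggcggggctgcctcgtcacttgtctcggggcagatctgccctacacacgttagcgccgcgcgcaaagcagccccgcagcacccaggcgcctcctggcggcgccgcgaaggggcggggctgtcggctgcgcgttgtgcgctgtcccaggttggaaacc

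The HLA-B and HLA-C windows were 89.0% identical when aligned. HLA-B held GGGGATTCC from position -177 to -169 relative to the start, a motif found in 0.3% of the 35116 promoters searched. The nearest site of HLA-C, from -173 to -165, carried 1 substitution, C9T, counted from 1 at the first base of the motif. TTTCNNTTT was present in the windows of B2M, TAP1, TAP2 and TAPBP and in 9.2% of all promoters. The HLA-B and HLA-C windows both hold TTTCACTTC, which misses this motif at its last base. Near matches were not searched over all promoters. In B2M, matches on the minus strand from -143 to -135 and from -137 to -129 overlapped, and in TAP1 matches on the plus strand from -134 to -126 and from -128 to -120 did so. TAP1 and PSMB9 were transcribed away from each other, with 487 bases between their starts. The PSMB9 window held none of TTTCNNTTT, GGGGATTCC or TTCNNNGAA, the palindromic STAT site, which was found in second windows of TAP1 and PSMB8 and in 6.6% of promoters. CCAAT was found in 5 of the 8 genes and 32.0% of promoters, and GGGCGG in 5 of the 8 genes and 42.6% of promoters. The windows of TAP1 and PSMB9 share 13 bases, and their CCAAT matches (-249 to -245 and -243 to -239) are the same bases read on opposite strands, so that the count of 5 holds this site for both genes. A match in these windows is a match of letters only.

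Between 15547851 and 18280415 reads on genes stood behind each library. The libraries carried each of the 9 genes above 0. The cell line labels went against known markers. FOXL2, the granulosa cell regulator whose mutation KGN is known for, was listed at 0 to 0.019 FPKM (fragments per kilobase of gene, scaled to library size) in the libraries labelled KGN and at 11.5 to 14.0 FPKM in those labelled COV434. SMARCA2, which COV434 is described as lacking together with SMARCA4, was at most 0.009 FPKM in the libraries labelled KGN and 4.51 to 6.48 FPKM in those labelled COV434. SMARCA4 lay at 2.25 to 2.60 FPKM and 6.51 to 12.6 FPKM respectively. The libraries are therefore named by their labels throughout, and which line each set came from was not tested further. Of the other granulosa markers, FSHR was at 0 in every library, AMHR2 at 0 in the 6 labelled KGN and NR5A1 at 0 in the 6 labelled COV434. INHA, the inhibin alpha subunit, had 1.06 ± 0.139 FPKM in untreated KGN and 4.75 ± 0.474 FPKM in untreated COV434 (log2 difference -1.48, limma adjusted p = 1.6e-05), and AMH, the anti-Müllerian hormone, 4.55 ± 0.290 and 8.24 ± 1.02 FPKM (-0.73, adjusted p = 0.000823). Both were lower in the libraries labelled KGN, as was FOXL2 (-3.74). WT1 ran the other way, at 45.9 to 61.4 FPKM in the libraries labelled KGN and at 0 in those labelled COV434. FOXL2 and WT1 reached the mean level needed for testing through 1 line only, so no p-value is given for this comparison. Within KGN, WT1 fell with 77-39 by 0.34 on the log2 scale (limma adjusted p = 0.00309). SIRT3 itself ranged from 3.36 to 4.95 FPKM over the 12 libraries. In bulk RNA, fewer expressing cells and less RNA per cell cannot be told apart.

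In the libraries labelled KGN, 77-39 treatment was followed by a higher level of HLA-E and TAP2 and a lower level of PSMB9, with no call for the heavy chains HLA-B and HLA-C, for B2M, for TAP1 or for TAPBP. By limma on log2(FPKM + 1), 2 of the 8 members tested were upregulated and 1 was downregulated at an adjusted p-value under 0.05, where 17.6% of all tested genes were upregulated and 16.4% downregulated. The members' share was thus near the background. In the libraries labelled COV434, 8 of the 9 members had a higher mean with 77-39 than without, but 0 of 9 passed the same test in either direction, where 0.00829% of all genes were upregulated and 0.0332% downregulated. At an unadjusted p-value under 0.05, 1 of 9 (PSMB9) was higher and 0 lower, against 3.52% and 4.49% of all genes, and voom on the recovered reads also called 0 of 9. The median log2 fold change of the members was 0.34 in COV434, against -0.02 over all genes tested, and -0.02 in KGN, against 0.01. PSMB9 was the member whose responses differed between the lines by limma's interaction test, as 1 of 9 called lower in KGN than in COV434 (1.74% of all genes) and 0 of 9 called higher (1.85%). With the library number as a block, HLA-B (-0.70, limma adjusted p = 0.0393) was called lower beside PSMB9 (adjusted p = 0.00994). In that fit 2.22% of all genes were called lower and 2.06% higher. The block was also set on the KGN libraries, which the numbers do not pair, and without it HLA-B had a limma adjusted p of 0.451. Without treatment, 8 of the 9 members were lower in the libraries labelled KGN (36.4% of all genes) and 0 were higher (32.6%).

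**Figure D1:**
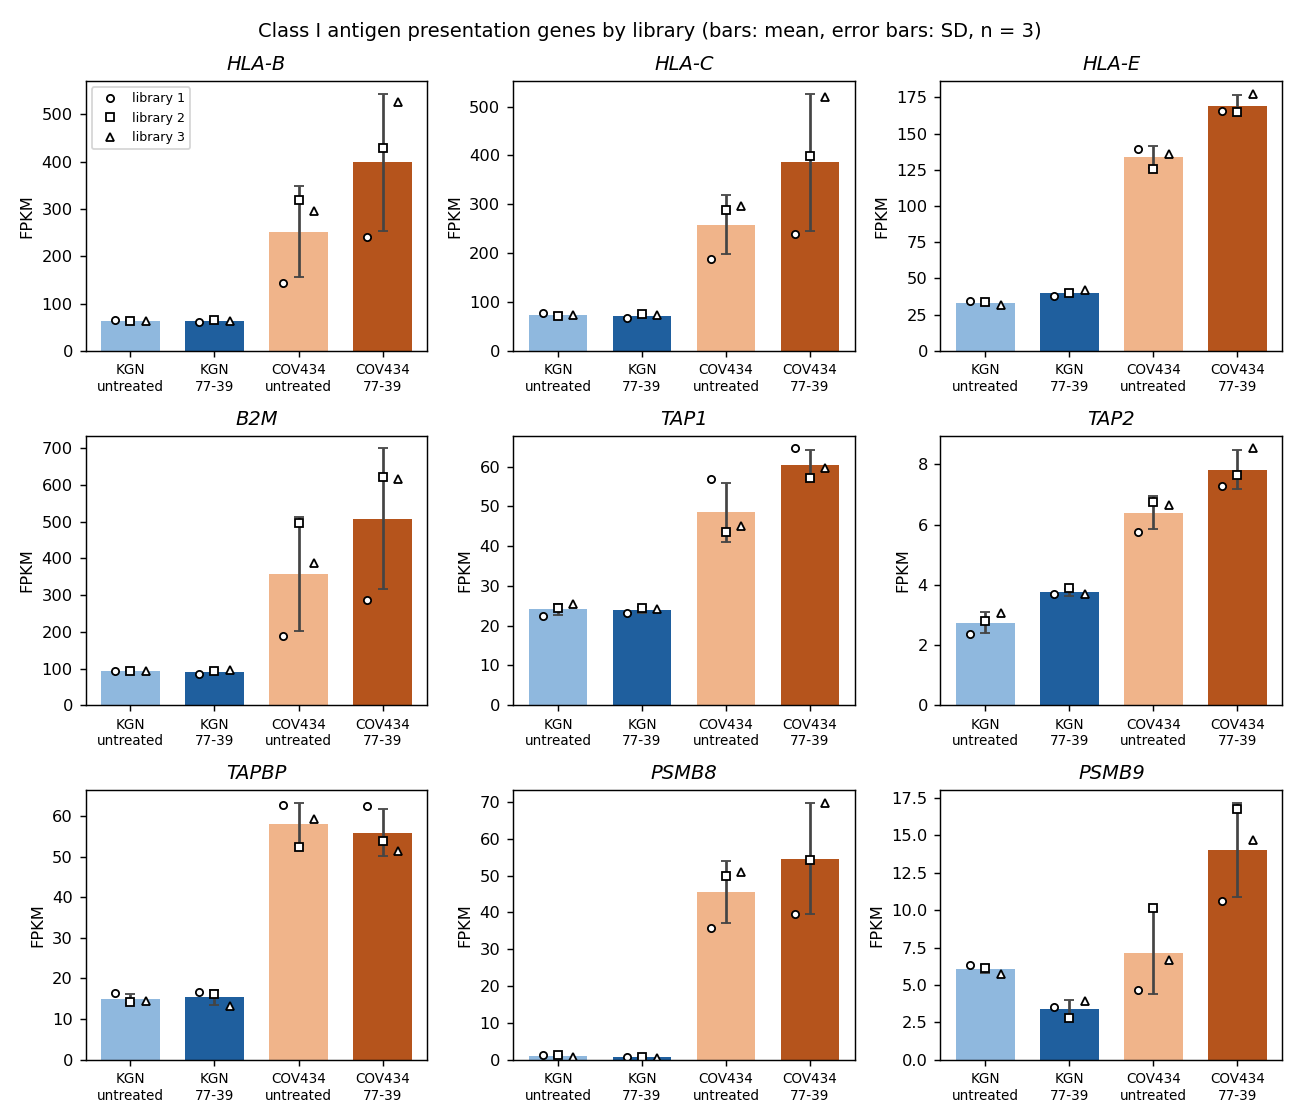
FPKM of the 9 genes in the 12 libraries, 1 panel per gene, with bars for the mean and error bars for the SD of 3 libraries, and circles, squares and triangles for libraries 1, 2 and 3. The libraries labelled COV434 lie above those labelled KGN in every panel except PSMB9, where the untreated libraries overlap.

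HLA-B (ENSG00000234745, GRCh38 chromosome 6, 31269491 to 31357188, minus strand) encodes a classical heavy chain. Its FPKM was 65.0, 63.3 and 63.7 in the untreated and 60.04, 64.6 and 63.8 in the treated libraries labelled KGN. In the libraries labelled COV434 it was 143, 318 and 296 without and 241, 429 and 526 with 77-39. The KGN groups overlapped and spanned a narrow range, whereas in COV434 the libraries numbered 1 were the lowest of both groups and the groups overlapped. The means were 64.0 ± 0.890 and 62.8 ± 2.44 FPKM in KGN and 252 ± 95.3 and 398 ± 145 FPKM in COV434 (SD, n = 3 each). The log2 fold change was -0.03 in KGN (SE 0.05, limma adjusted p = 0.674) and 0.67 in COV434 (SE 0.38, 95% interval -0.20 to 1.54, adjusted p = 0.766). The untreated COV434 mean was 3.94 times the untreated KGN mean, a difference past the test (adjusted p = 0.00134).

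HLA-C (ENSG00000204525, chromosome 6, 31268749 to 31272130, minus strand), the neighbouring classical heavy chain, followed the same order. Its FPKM was 76.7, 71.8 and 73.3 in untreated and 67.9, 74.6 and 73.1 in treated KGN. The COV434 libraries had 188, 289 and 296 without and 240.2, 399 and 519 with 77-39. Both lines had overlapping groups, and library 1 was again the lowest in each COV434 group. Its log2 fold change was -0.04 in KGN (SE 0.05, limma adjusted p = 0.585) and 0.54 in COV434 (SE 0.31, adjusted p = 0.766). Without treatment its mean in COV434 was 3.49 times that in KGN (adjusted p = 0.00018). HLA-B and HLA-C summed to between 128 and 142 FPKM in the libraries labelled KGN and between 331 and 1045 FPKM in those labelled COV434.

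HLA-E (ENSG00000204592, chromosome 6, 30489467 to 30494205, plus strand) encodes the non-classical heavy chain that mainly presents leader peptides of other class I chains. Its FPKM was 34.2, 33.7 and 31.5 in untreated and 38.2, 40.2 and 42.0 in treated KGN, with every treated library above every untreated one. In COV434 it was 139.6, 125 and 136 without and 166, 165 and 177 with 77-39, again without overlap. HLA-E rose in KGN by a log2 fold change of 0.27 (SE 0.05, 95% interval 0.14 to 0.40, limma adjusted p = 0.0101). The log2 fold change in COV434 was 0.34 (SE 0.15, 95% interval -0.002 to 0.682, adjusted p = 0.631), and the difference between the lines, -0.07, did not pass the test (95% interval -0.34 to 0.19, adjusted p = 0.826). The HLA-E call in KGN ended when all 12 libraries were fitted together and shared 1 estimate of spread (adjusted p = 0.0694). Untreated COV434 had 4.04 times the HLA-E of untreated KGN (adjusted p = 2.87e-06).

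B2M (ENSG00000166710, chromosome 15, 44711487 to 44718877, plus strand), the light chain shared by all class I heavy chains, was the most abundant of the 9 genes per length in every group. It ranked 287th by mean FPKM among the 29830 genes above 0 in untreated KGN and 79th among 24787 in untreated COV434. Its FPKM was 92.1, 94.3 and 93.3 in untreated and 84.1, 93.6 and 97.0 in treated KGN. In COV434 it was 188, 495 and 388 without and 287, 621 and 616 with 77-39. The groups overlapped in both lines, and library 1 was far below libraries 2 and 3 in both COV434 groups. The log2 fold change was -0.03 in KGN (95% interval -0.17 to 0.12, limma adjusted p = 0.754) and 0.53 in COV434 (95% interval -0.43 to 1.49, adjusted p = 0.86). The untreated lines differed 3.83-fold in B2M (adjusted p = 0.00282). B2M over the sum of HLA-B and HLA-C stayed between 0.65 and 0.71 in the KGN libraries and between 0.57 and 0.82 in the COV434 libraries.

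TAP1 (ENSG00000168394, chromosome 6, 32845209 to 32853978, minus strand) encodes the first subunit of the peptide transporter. Its FPKM was 22.5, 24.3 and 25.4 in untreated and 23.2, 24.5 and 24.3 in treated KGN, which overlapped. In COV434 it was 57.0, 43.5 and 45.0 without and 64.6, 57.1 and 59.7 with 77-39. The COV434 groups did not overlap, although the untreated library 1 lay just below the lowest treated one. The log2 fold change was -0.004 in KGN (95% interval -0.134 to 0.125, limma adjusted p = 0.958) and 0.32 in COV434 (SE 0.16, adjusted p = 0.714). In contrast to HLA-B, HLA-C and B2M, TAP1 was highest in library 1 of both COV434 groups.

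TAP2 (ENSG00000204267, chromosome 6, 32821833 to 32838780, minus strand) encodes the second subunit and was read at a far lower level per length than TAP1. Its FPKM was 2.37, 2.79 and 3.07 in untreated and 3.68, 3.89 and 3.68 in treated KGN. COV434 libraries had 5.76, 6.76 and 6.65 without and 7.30, 7.65 and 8.53 with 77-39. Treated libraries stood above untreated ones without overlap in both lines. TAP2 rose in KGN by a log2 fold change of 0.35 (SE 0.08, 95% interval 0.16 to 0.53, limma adjusted p = 0.0158), a call that ended without treated library 2 of KGN (adjusted p = 0.059) and without a filter on low values (adjusted p = 0.0573). In COV434 the log2 fold change was 0.26 (adjusted p = 0.746). Without treatment, the COV434 means were 2.01 times the KGN means for TAP1 (adjusted p = 0.000498) and 2.33 times for TAP2 (adjusted p = 0.000174).

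TAPBP (ENSG00000231925, chromosome 6, 33299694 to 33314387, minus strand), the gene for tapasin, was called between the untreated lines and in neither response. Its FPKM was 16.4, 14.3 and 14.4 in untreated and 16.6, 16.1 and 13.3 in treated KGN, and 62.6, 52.4 and 59.1 without and 62.4, 53.7 and 51.4 with 77-39 in COV434. Treated and untreated libraries overlapped in both lines. Log2 fold changes of TAPBP were 0.02 in KGN (adjusted p = 0.868) and -0.06 in COV434 (95% interval -0.41 to 0.30, limma adjusted p = 0.985). The untreated mean in COV434 was 3.86 times that in KGN (adjusted p = 6.95e-06).

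PSMB8 (ENSG00000204264, chromosome 6, 32840717 to 32844703, minus strand) encodes the inducible subunit that takes the place of PSMB5, the chymotrypsin-like subunit of the standard proteasome. Its FPKM was 1.17, 1.25 and 0.678 in untreated and 0.754, 0.625 and 0.439 in treated KGN, from 65, 64 and 40 and from 41, 33 and 22 reads. Those labelled COV434 had 35.8, 49.9 and 50.8 without and 39.7, 54.3 and 69.7 with 77-39. Groups overlapped in both lines, and PSMB8 was not tested within KGN because its mean lay under 1 FPKM. In COV434 the log2 fold change was 0.24 (adjusted p = 0.906). PSMB8 showed the widest gap between the untreated lines, 44.07-fold in mean FPKM and -4.51 on the log2(FPKM + 1) scale (KGN minus COV434, SE 0.18, limma adjusted p = 1.27e-06).

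PSMB9 (ENSG00000240065, chromosome 6, 32844136 to 32859585, plus strand) encodes the inducible counterpart of PSMB6. Its FPKM was 6.32, 6.15 and 5.76 in untreated and 3.55, 2.81 and 3.89 in treated KGN, from 323 to 360 and from 152 to 200 reads. The libraries labelled COV434 had 4.66, 10.1 and 6.67 without and 10.6, 16.8 and 14.7 with 77-39. All treated KGN libraries lay below, and all treated COV434 libraries above, the untreated libraries of their line. PSMB9 fell in KGN from 6.08 ± 0.290 to 3.42 ± 0.555 FPKM (SD, n = 3 each), a log2 fold change of -0.69 (SE 0.10, 95% interval -0.91 to -0.46, limma adjusted p = 0.00267). In COV434 the means were 7.16 ± 2.78 and 14.0 ± 3.13 FPKM. The log2 fold change there was 0.92 (SE 0.27, 95% interval 0.30 to 1.53) and did not pass after adjustment (limma adjusted p = 0.345). The response in KGN minus that in COV434 was -1.60 (SE 0.31, 95% interval -2.30 to -0.91, limma adjusted p = 0.0225). This call was made in 11 of 19 alternatives, with adjusted p-values from 0.00482 to 0.0743. It was lost without any 1 of the untreated KGN libraries 1, 2 and 3, the treated KGN libraries 1 and 2, the untreated COV434 library 3 and the treated COV434 library 2 (adjusted p 0.0546 to 0.0743), and without a filter on low values (adjusted p = 0.0565). The KGN call itself ended in the joint fit of all 12 libraries (adjusted p = 0.0815) and was made there with the library number as a block (adjusted p = 0.016), although the numbers do not pair the KGN libraries. PSMB9 was also the member with the smallest gap between the untreated lines, 1.18-fold, with overlapping libraries (log2 difference -0.15, 95% interval -0.71 to 0.41, adjusted p = 0.589).

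**Figure D2:**
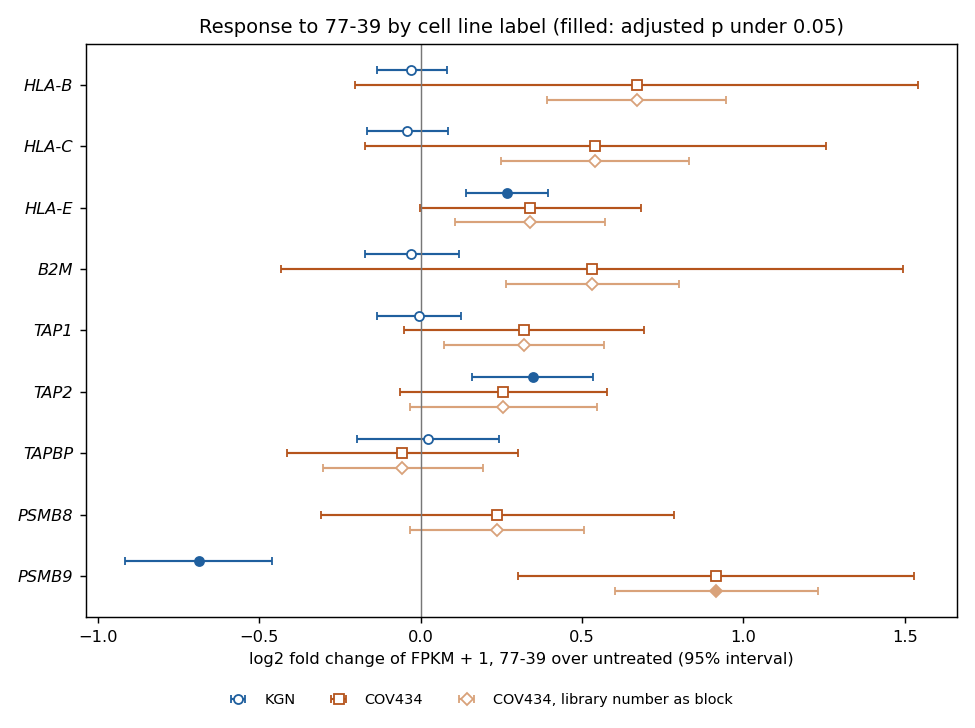
Log2 fold change of FPKM + 1 for 77-39 over untreated with 95% intervals, for KGN (circles), COV434 (squares) and COV434 with the library number as a block (diamonds), filled where the adjusted p-value was under 0.05. HLA-E, TAP2 and PSMB9 are filled in KGN, and PSMB9 is filled in COV434 in the blocked fit alone.

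The plot of responses with their intervals shows that the COV434 intervals were several times wider than those of KGN for HLA-B, HLA-C and B2M. Same-numbered COV434 libraries deviated together from their group means across all tested genes (correlation 0.4, 0.474 and 0.166), so the library number was also fitted as a block. Untreated library 3 correlated almost as well with treated library 2 (0.154), and the labels do not give the pairing. With the block, 1 of 9 members, PSMB9, was upregulated at an adjusted p-value under 0.05 (adjusted p = 0.0475 by limma), where 0.323% of all genes were upregulated and 0.398% downregulated. At an unadjusted p-value under 0.05, 6 of 9 were higher and 0 lower, against 6.85% and 7.57% of all genes. These were HLA-B (SE 0.12, adjusted p = 0.074), B2M (SE 0.11, adjusted p = 0.11), HLA-C (SE 0.12, adjusted p = 0.126), HLA-E (SE 0.10, adjusted p = 0.196), TAP1 (SE 0.10, adjusted p = 0.236) and PSMB9.

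Treated over untreated FPKM within the COV434 pairs numbered 1, 2 and 3 was 2.28, 1.65 and 2.20 for PSMB9, 1.68, 1.35 and 1.78 for HLA-B and 1.52, 1.25 and 1.59 for B2M. HLA-C gave 1.28, 1.38 and 1.75, HLA-E 1.19, 1.32 and 1.3, and TAP1 1.13, 1.31 and 1.33. In all, 8 of 9 members were above 1 in all 3 pairs, against 17.9% of tested genes, and 0 below 1 in all 3, against 18.9%, with TAPBP the exception at 1.00, 1.03 and 0.87. These ratios share their libraries between genes, and the members were chosen with earlier results of these data known. The same ratios in KGN were above 1 in all 3 pairs for 2 members (32.2% of tested genes) and below 1 in all 3 for 2 (29.3%), but the numbers did not pair the KGN libraries. Without regard to pairs, 4 of 9 members (HLA-E, TAP1, TAP2 and PSMB9) were higher in treated COV434 with no overlap between groups, against 6.23% of tested genes, and 0 of 9 lower, against 8.16%. In KGN 2 of the 9 were higher without overlap (26.3% of tested genes) and 1 lower (23.4%). With 3 libraries against 3, an exact permutation test of a single gene cannot go below p = 0.1.

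**Figure D3:**
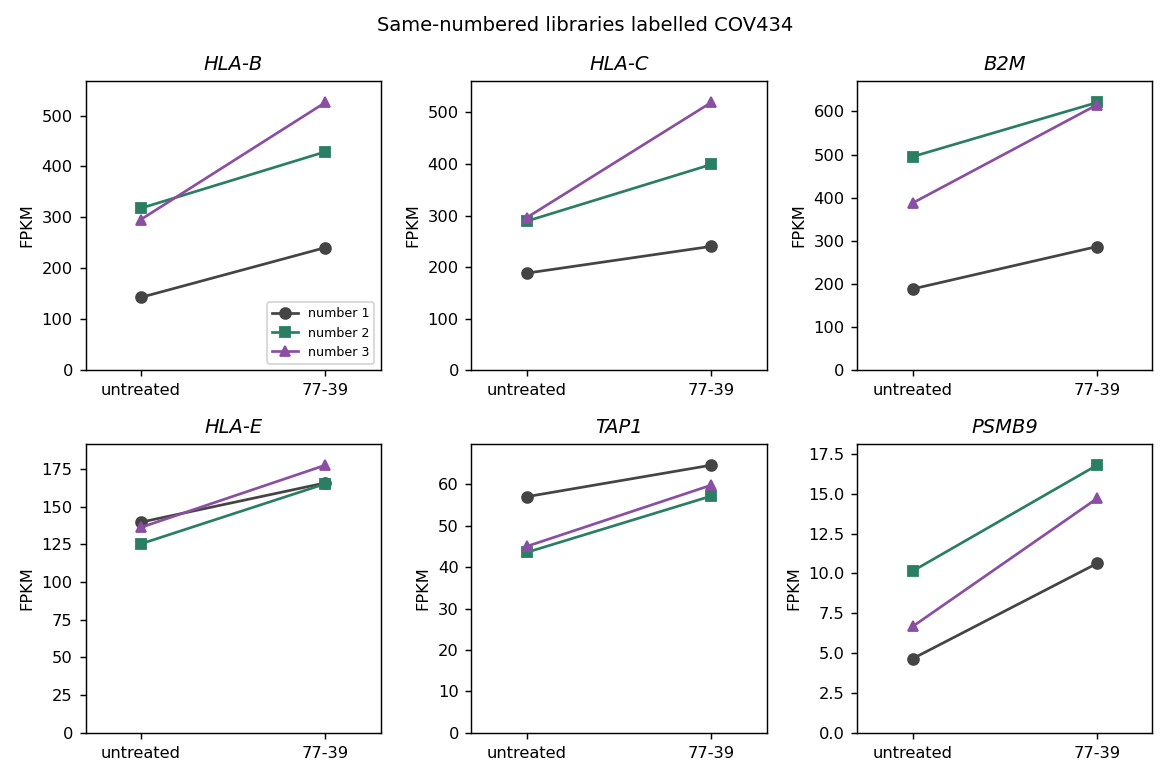
FPKM of 6 genes in the libraries labelled COV434, with a line joining the untreated and the treated library of each number. The 6 genes are those higher at an unadjusted p-value under 0.05 in the blocked fit, and every line shown goes up. Of the members not shown, TAP2 and PSMB8 were also higher in every pair, and TAPBP was not. The libraries numbered 1 (circles) lie lowest for HLA-B, HLA-C, B2M and PSMB9 and highest for TAP1.

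The libraries numbered 1 of COV434 stood apart in the lines of this plot. They also had the highest shares of reads on mitochondrially encoded genes, 9.63% untreated and 13.51% treated, against 7.71% to 8.74% in the other COV434 libraries, and the part of this in the values was not tested. When both were left out, the log2 fold changes in COV434 were 0.63 for HLA-B, 0.64 for HLA-C, 0.39 for HLA-E, 0.50 for B2M, 0.39 for TAP1 and 0.85 for PSMB9, with 0 members called (limma adjusted p 0.158 to 0.3 for these 6). Without both libraries the difference between the responses of the lines was called for 5 members in place of 1: PSMB9 (-1.54, adjusted p = 0.00482), HLA-B (-0.66, adjusted p = 0.0144), HLA-C (-0.68, adjusted p = 0.0211), TAP1 (-0.40, adjusted p = 0.0314) and B2M (-0.52, adjusted p = 0.0488). All 5 were lower in KGN, where 6.82% of all genes were then called lower and 8.4% higher, against 1.74% and 1.85% with every library, so that calls rose over all genes as well. Over the 6 COV434 libraries, deviations of log2 values from the group means correlated at 0.91 to 0.98 among HLA-B, HLA-C and B2M. This was not particular to them, as HLA-B correlated at 0.96 with PSMB8, 0.94 with TAP2 and 0.86 with PSMB9. HLA-B correlated at -0.89 with TAP1, -0.9 with TAPBP and -0.18 with HLA-E. Over all 36 pairs of members the correlation ranged from -0.93 to 0.99. These points share their libraries.

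The ratio of an inducible proteasome subunit to its standard counterpart was compared per length. PSMB9 over PSMB6 was 0.109 ± 0.0037 in untreated and 0.0674 ± 0.012 in treated KGN, and 0.0636 ± 0.0221 in untreated and 0.127 ± 0.0283 in treated COV434 (SD, n = 3 each). The treated libraries were all below the untreated ones in KGN and all above them in COV434. PSMB8 over PSMB5 was 0.0114 ± 0.0033 and 0.0075 ± 0.0026 in KGN and 0.548 ± 0.0562 and 0.6205 ± 0.0547 in COV434, so that the lines were further apart in PSMB8 than in PSMB9. PSMB10 over PSMB7, the third pair, was 0.0205 ± 0.0025 and 0.0142 ± 0.002 in KGN and 0.0858 ± 0.0257 and 0.0809 ± 0.0129 in COV434. In KGN, PSMB10 rested on few reads, 36, 45 and 49 untreated and 23, 28 and 30 treated. PSMB10 itself was not called there (limma adjusted p = 0.0824).

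Of 16 other class I pathway genes, 13 were tested in each line. In KGN 3 rose and 2 fell, shares near the 17.6% and 16.4% of all tested genes. Those that rose were folding factors of the endoplasmic reticulum that assist class I assembly. The chaperone CANX (calnexin) rose by a log2 fold change of 0.49 (limma adjusted p = 0.000688), CALR (calreticulin) by 0.35 (adjusted p = 0.00842) and PDIA3, the disulfide isomerase partner of tapasin, by 0.22 (adjusted p = 0.0156). PSME1 and PSME2, the subunits of the PA28 proteasome activator, fell by 0.62 (adjusted p = 0.00262) and 0.33 (adjusted p = 0.00369) on the log2 scale. In COV434 limma called 0 of 13, with or without the block. Of all genes, 0.00829% were called higher and 0.0332% lower without the block, and 0.323% and 0.398% with it. At an unadjusted p-value under 0.05 without the block, 1 was higher and 0 lower (3.52% and 4.49% of all genes). HLA-F, a non-classical heavy chain, had a log2 fold change of 0.61 there (limma adjusted p = 0.434, blocked adjusted p = 0.159). The interaction was called by limma for 0 of 13, where 1.85% of all genes were called higher and 1.74% lower in KGN. At an unadjusted p-value under 0.05, 2 were higher and 3 lower in KGN, against 9.59% and 8.44% of all genes. HLA-G was at 0 in every KGN library and in 5 of the 6 COV434 libraries.

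Between the untreated lines, 4 of these 13 genes were higher and 6 lower in KGN, where 32.6% of all genes were higher and 36.4% lower. HLA-F ran against the 8 members, with 6.38 ± 0.664 FPKM in KGN and 1.07 ± 0.302 in COV434 (log2 difference 1.84, limma adjusted p = 2.39e-05). CANX (-1.46, adjusted p = 2.47e-05), PSMB10 (-1.37, adjusted p = 5.05e-05), PSMB6 (-0.99, adjusted p = 9.18e-05) and CALR (-1.53, adjusted p = 9.65e-05) were lower in KGN.

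**Figure D4:**
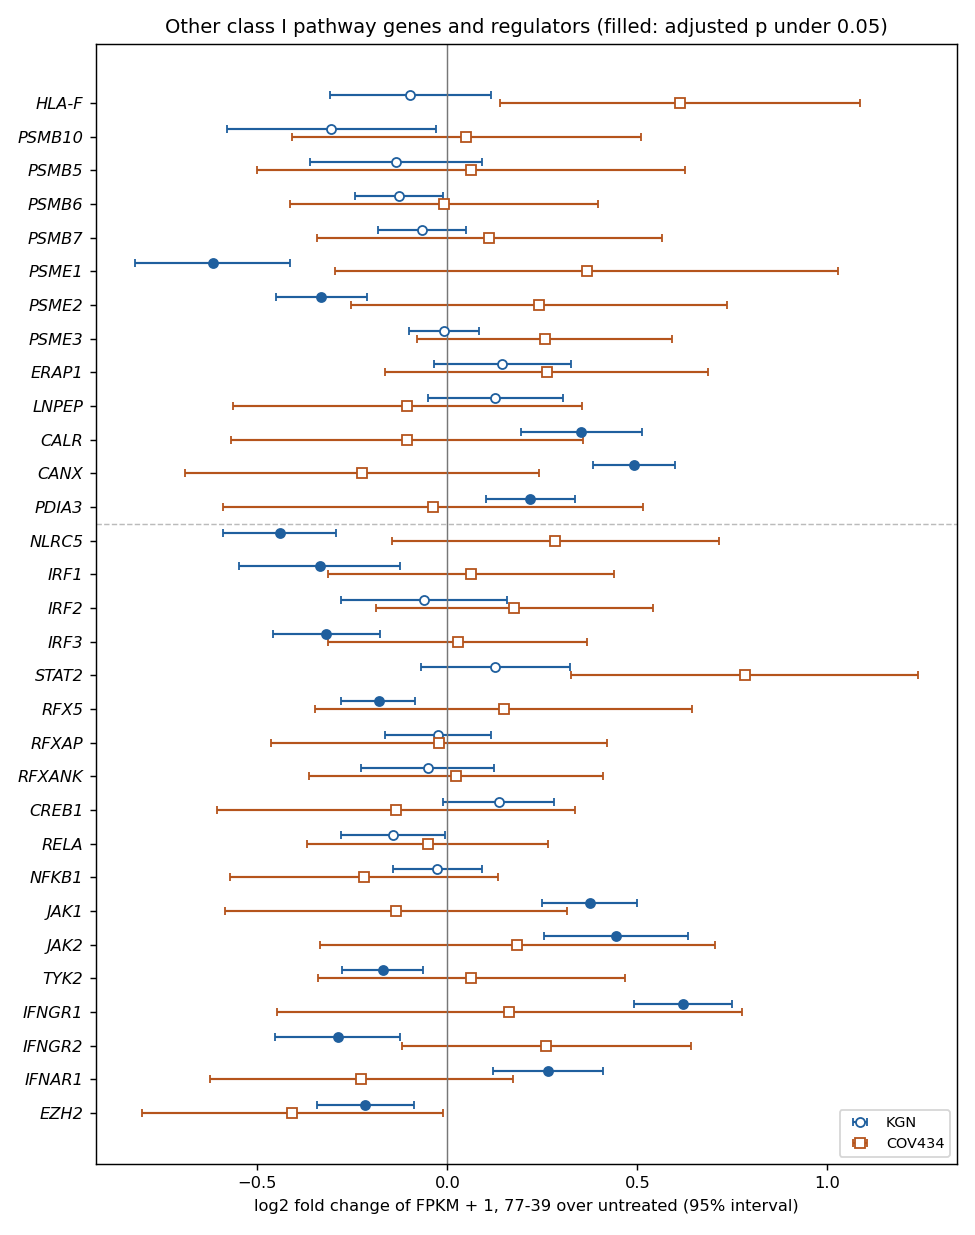
Log2 fold change of FPKM + 1 for 77-39 over untreated with 95% intervals for 31 genes tested in both lines, 13 other class I pathway genes above the dashed line and 18 regulators below it. Filled circles (KGN) mark the 16 genes that passed the test (adjusted p-value under 0.05), while every COV434 square is empty. Of all genes tested, 17.6% were upregulated and 16.4% downregulated in KGN, and 0.00829% and 0.0332% in COV434.

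Of 21 genes for regulators of class I expression and for interferon receptors and kinases, 18 were tested in KGN, where 4 rose and 7 fell, against 17.6% and 16.4% of all tested genes. The receptor chain IFNGR1 rose by a log2 fold change of 0.62 (limma adjusted p = 0.000581), and the receptor-associated kinases JAK1 and JAK2 by 0.37 (adjusted p = 0.00273) and 0.44 (adjusted p = 0.00671). NLRC5, the transactivator of class I genes, fell by 0.44 (adjusted p = 0.00289), from 5.44 ± 0.411 to 3.74 ± 0.149 FPKM, and IRF3 fell by 0.32 (adjusted p = 0.00776). Receptor chains and kinases went both ways. The receptor chain IFNAR1 rose by 0.26 (limma adjusted p = 0.0165), while the receptor chain IFNGR2 fell by 0.29 (adjusted p = 0.0192). The kinase TYK2 fell by 0.17 (limma adjusted p = 0.0271) and the transcription factor IRF1 by 0.34 (adjusted p = 0.0271). In COV434 limma called 0 of 19 regulators, with or without the block. The shares of all genes called higher and lower were 0.00829% and 0.0332% without the block, and 0.323% and 0.398% with it. Without the block, 1 regulator was higher and 1 lower at an unadjusted p-value under 0.05, again against 3.52% and 4.49% of all genes. STAT2 went from 12.2 ± 2.72 to 21.5 ± 3.44 FPKM (log2 fold change 0.78, limma adjusted p = 0.261, blocked adjusted p = 0.0762). Limma called the response different between the lines for 0 of 18 regulators, where 1.85% of all genes were called higher and 1.74% lower in KGN. At an unadjusted p-value under 0.05, 2 regulators were higher and 5 lower in KGN (9.59% and 8.44% of all genes). Between the untreated lines 5 regulators were higher (32.6% of all genes) and 6 lower (36.4%) in KGN, led by JAK1 (-1.43, limma adjusted p = 1.29e-05), RFXAP, a subunit of the RFX complex that binds class I and class II promoters (1.10, adjusted p = 9.01e-05), RFXANK (-0.61, adjusted p = 0.000607), IRF2 (0.68, adjusted p = 0.00272) and IRF3 (-0.43, adjusted p = 0.00298).

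Genes of class II presentation and of leukocytes were near 0. Of 10 class II genes, 9 stayed under 1 FPKM in all 12 libraries, HLA-DQA1 was at 0 in all, and HLA-DRA, HLA-DPB1 and HLA-DQB1 were at 0 in all libraries labelled COV434. The exception, HLA-DMA, had log2 fold changes of -0.10 in KGN and 0.34 in COV434 and was called in neither. All 5 leukocyte markers stayed under 1 FPKM, with a summed level of 0.241 to 0.342 FPKM in untreated and 0.383 to 0.475 FPKM in treated KGN, and of 0.096 to 0.38 FPKM in untreated and 0.007 to 0.178 FPKM in treated COV434. CD3E and ITGAM were at 0 in every library. LYZ was at 0 in those labelled COV434.

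The genes whose pattern was most like the mean of the 9 members were sought by Pearson correlation over the 12 libraries, after the mean of each line was removed. Among 10908 protein-coding genes, the highest values were those of AKR1A1 (0.98), IL6 (0.98), BAX (0.97), COPZ2 (0.97) and TMEM219 (0.97). IL6 was at 0 in KGN and went from a mean of 1.75 FPKM untreated to 3.46 FPKM treated in COV434. Over the 6 COV434 libraries alone the correlations of these 5 genes were 0.98 to 0.99, and over the 6 KGN libraries 0.29 to 0.80, without IL6, which did not vary there. The points share their libraries and the treatment.

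Reads of some members could be shared with overlapping genes. In GENCODE release 29, 32.3% of the exonic bases of TAP2 also belong to AL669918.1 on the same strand, which was at 0 in all libraries. PSMB8-AS1, at 0.234 to 2.78 FPKM, overlaps 20.6% of the exonic bases of PSMB8 and 9.5% of those of TAP1 on the opposite strand and 5.7% of those of PSMB9 on its own strand. PSMB8 and PSMB9 share 139 bases on opposite strands. The counting was not stated to use strand, so reads on these bases cannot be told apart. HLA-B shares 17.8% of its exonic bases with AL671883.2 on the opposite strand, which reached at most 0.059 FPKM, while HLA-E, B2M and TAPBP share none. Of all stretches of 100 bases in transcripts of HLA-C and HLA-E, 0.13% and 0.49% also occur in transcripts of another gene.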

How the data were processed

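RNA-seq of 12 libraries, 3 per cell line and treatment, was analysed as grouped by the labels. The authors deposited FPKM per gene, which are scaled to the length of the gene and the size of the library. The submitters' processing notes name HISAT2 2.0.5 and mouse builds, and the extraction text names retinas, whereas the coordinates of the table are those of human GENCODE release 29 (GRCh38). For all 9 members the gene length was the union of exons. The counting tool, its strand setting and its treatment of alleles that differ from the reference are not given in the sources used here. FPKM multiplied by gene length fell on whole reads for 100% of genes above 0 (tolerance 0.05). These reads numbered 15547851 to 18280415 per library, and 3 reads, the limit a count of 0 allows, equal 0.152 to 0.2 FPKM for a gene of 1 kb, for counting error only. No table column belonged to another sample. The library size behind FPKM was above the reads on genes in every KGN library and below them in every COV434 library. For untreated library 1 it was 18540179 against 16803402 reads in KGN and 16572406 against 17701495 in COV434. FPKM ratios between the lines hold this difference. By voom, scaled to reads on genes, HLA-B differed by -1.69 between the untreated lines in place of -1.88.

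Values were fitted by limma 3.58.1 (lmFit, and eBayes with a trend) in R 4.3.3 on log2(FPKM + 1). Genes entered when their mean over the libraries of the fit reached 1 FPKM. All tests were two-sided, and p-values were adjusted by the Benjamini-Hochberg method over all genes tested. Each line was fitted alone, the difference between responses as the interaction over 12 libraries, and the untreated lines over 6 libraries. Fold changes on this scale understate those of low genes. Same-numbered COV434 libraries deviated together (correlation 0.4, 0.474 and 0.166 over 12060 genes). The number was therefore taken to pair them, although the labels do not say what it marks. COV434 libraries of unlike number gave -0.469 to 0.154, and the highest, untreated 3 with treated 2, was near the third pair. In KGN the correlations were -0.016, -0.018 and -0.019, and the number does not pair them.

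Named were all members, in each list and comparison up to 5 called genes with the smallest p, list genes at 0 in all libraries of a line, the 5 genes most like the members' mean, and label checks. Other genes of the lists were given after their values were seen, HLA-F, STAT2 and HLA-DMA for COV434 and IFNAR1, IFNGR2, TYK2 and IRF1 for KGN. The members and lists were chosen with earlier results of these data known, and 3 genes of the lists are not reported here. The alternatives tried were another pseudocount (0.1), filters at 0.1 FPKM or none, median-ratio scaling, voom of limma on the recovered reads, 1 fit of all 12 libraries, the replicate block and each library left out. Leaving out both COV434 libraries numbered 1, and the joint fit with the block, were added after seeing the data. The fits of each line alone were run on simulated data with known changes, larger than any response of a member and without shared effects of library number. That run does not bear on changes of the members' size. Motifs were searched in RefSeq promoters with Python 3.11.15, numpy 2.4.6, pandas 2.3.3 and matplotlib 3.10.9.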

Additional observations from a re-analysis of the deposited data

Results flagged for a closer look

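The response of PSMB9 to 77-39 differed between the cell lines by limma's interaction test, with a value of -1.60 on the log2 scale (KGN minus COV434, adjusted p = 0.0225). Among the libraries labelled KGN all 3 treated ones lay below the untreated ones, and among those labelled COV434 all 3 lay above them. These labels went against known markers of the lines. The call was made in 11 of 19 alternatives (limma adjusted p 0.00482 to 0.0743). The response in COV434 alone was not called (limma adjusted p = 0.345).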

How the results depend on the processing

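Among all alternatives run, 498 log2 fold changes of single members kept their direction and side of the threshold. Another 12 came to pass the test and 13 no longer passed. Counts of calls, given below, are not in this tally. In 12 cases a fold change that was called in neither fit changed sign, all but 1 of them when a library was left out. On the log2 scale the values without 1 library then ranged, in KGN, from -0.048 to 0.004 for HLA-B, -0.070 to 0.032 for B2M, -0.049 to 0.033 for TAP1 and -0.036 to 0.119 for TAPBP, in COV434 from -0.137 to 0.000 for TAPBP, and between the untreated lines from -0.387 to 0.103 for PSMB9, for which voom gave 0.038. Between the untreated lines 8 members were called in every alternative. The number of members called in KGN was 3, and 1 in the fit of all 12 libraries, and 2 to 3 when a library was left out. In COV434 it was 0, and 1 in the fit of all 12 libraries, 1 with the replicate block and 5 with the 2 together, an alternative chosen after seeing the data, and 0 in every fit without 1 library. For the difference between the lines it was 1, and 0 without a filter, and 0 to 1 when a library was left out. With the replicate block it was 2 (PSMB9 and HLA-B, limma adjusted p = 0.0393 for HLA-B), in a fit that also blocked the unpaired KGN libraries. It was 5 without both COV434 libraries numbered 1, also chosen after seeing the data. In the fit of all 12 libraries the block also brought back the KGN call of PSMB9 (adjusted p = 0.0815 without and 0.016 with it), and it changed no call of a member in the fits of KGN alone. Over all genes, KGN calls were 4307, and 1237 in the fit of all 12 libraries, 1377 there with the block, and 2751 to 4128 when a library was left out, with 2751 without treated library 2. COV434 calls were 5, and 3 at a pseudocount of 0.1, 3 at a filter of 0.1 FPKM, 1 without a filter, 25 by voom, 488 in the fit of all 12 libraries, 87 with the block, 746 with both, 12 without both libraries numbered 1, and 1 to 7 without 1 library. Calls of a difference between the lines were 472, and 264 by voom, 2007 without both libraries numbered 1, and 126 to 975 without 1 library. The causes were not tested. With 22 to 65 reads, PSMB8 in KGN was limited by depth, and at a filter of 0.1 FPKM its log2 fold change was -0.33 (limma adjusted p = 0.172).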
